A study of Mus musculus with 34 samples.

Results

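The 94 genes described here encode RAB GTPases, synaptotagmins, syntaxins and VAMPs, the families that identify, tether and fuse transport vesicles. They were taken from 21887 mouse protein-coding genes by symbol: Rab, Syt, Stx or Vamp followed by a number and, for some, a letter. The granule genes Rab3a, Rab27a, Syt7, Stx1a and Vamp2 were left out by the rule. This gave 57 RAB genes, 16 synaptotagmins, 14 syntaxins and 7 VAMPs. A gene was counted as having a peak when its body was the nearest protein-coding gene body to the peak and lay within 50 kb.

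Chromatin immunoprecipitation with sequencing (ChIP-seq), which maps the DNA that a protein occupies, was made in Beta-TC6, a mouse insulin-secreting β-cell line. Antibodies were against p65 (the RELA subunit of NF-κB), PDX1 (a homeodomain factor of β-cells) and SIN3A (a corepressor scaffold that binds histone deacetylases). p65 and PDX1 were mapped in wild-type cells and in cells lacking Bmal1, a circadian clock activator, each as control cells and with IL-1β, an inflammatory cytokine, with 3 samples per group. SIN3A was mapped in wild-type cells that received control siRNA or Pdx1 siRNA, with 2 samples per group, and 6 inputs complete the 34 samples. All cells, controls included, had been synchronised by 10 µM forskolin for 1 h. The dose and duration of IL-1β, how the Bmal1-/- line was made, whether it is 1 clone, and whether samples came from separate cultures are not stated in the labels used here.

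RAB proteins are molecular switches that mark each membrane compartment when bound to GTP and recruit the effectors that move and tether vesicles. Syntaxins on the target membrane and VAMPs on the vesicle are SNARE proteins, which zip into a bundle that draws the membranes together, and synaptotagmins couple that step to calcium. In β-cells this machinery releases insulin granules when glucose raises cytosolic calcium.

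The stretches before annotated gene starts at which a peak reached the promoter are shown first, because they hold the letters to which the position results refer. Each runs 5′ to 3′ on the gene's strand, ends at the base before the start annotated by RefSeq (GRCm38.p6, the assembly of mm10) and is 250 bases long, and capitals mark bases under the peak. Stx12, Rab1a, Rab1b and Vamp1 had the highest peaks, all of SIN3A (46.3, 35.5, 23.8 and 20.3 tags), over windows that lie outside annotated gene bodies, at most 1 gene per family and list. Rab39b, the 1 gene with a PDX1 peak over its window, and Vamp4, with a SIN3A peak over most of its window, were added after their values were seen.
Stx12, chr4:132884459-132884708, minus strand: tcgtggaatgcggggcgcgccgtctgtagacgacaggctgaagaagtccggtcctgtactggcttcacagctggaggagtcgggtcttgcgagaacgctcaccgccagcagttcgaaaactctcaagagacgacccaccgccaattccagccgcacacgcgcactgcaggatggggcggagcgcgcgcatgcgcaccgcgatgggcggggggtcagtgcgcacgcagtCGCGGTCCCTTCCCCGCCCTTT
Rab1a, chr11:20201162-20201411, plus strand: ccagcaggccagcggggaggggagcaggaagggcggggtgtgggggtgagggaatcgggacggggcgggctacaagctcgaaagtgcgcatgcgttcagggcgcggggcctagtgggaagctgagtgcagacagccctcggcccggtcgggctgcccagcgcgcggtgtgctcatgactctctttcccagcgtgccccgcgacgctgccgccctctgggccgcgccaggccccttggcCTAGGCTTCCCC
Rab1b, chr19:5106997-5107246, minus strand: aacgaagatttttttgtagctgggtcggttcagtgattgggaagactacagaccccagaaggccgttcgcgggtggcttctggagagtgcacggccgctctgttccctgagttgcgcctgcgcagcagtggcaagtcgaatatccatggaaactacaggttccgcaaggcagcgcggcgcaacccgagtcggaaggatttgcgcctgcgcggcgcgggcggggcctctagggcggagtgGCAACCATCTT
Vamp1, chr6:125215331-125215580, plus strand: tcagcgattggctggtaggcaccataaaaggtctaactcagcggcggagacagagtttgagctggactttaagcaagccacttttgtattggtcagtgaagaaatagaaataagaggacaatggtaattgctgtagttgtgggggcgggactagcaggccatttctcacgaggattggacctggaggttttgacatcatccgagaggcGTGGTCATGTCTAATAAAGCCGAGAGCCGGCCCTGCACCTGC
Rab39b, chrX:75578232-75578481, minus strand: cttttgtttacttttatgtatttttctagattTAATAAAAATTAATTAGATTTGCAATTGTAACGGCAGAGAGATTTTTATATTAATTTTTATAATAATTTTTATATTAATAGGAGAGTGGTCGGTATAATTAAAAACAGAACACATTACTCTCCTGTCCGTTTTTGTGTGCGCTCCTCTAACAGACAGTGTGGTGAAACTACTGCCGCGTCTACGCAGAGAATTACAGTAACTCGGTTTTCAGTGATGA
Vamp4, chr1:162570265-162570514, plus strand: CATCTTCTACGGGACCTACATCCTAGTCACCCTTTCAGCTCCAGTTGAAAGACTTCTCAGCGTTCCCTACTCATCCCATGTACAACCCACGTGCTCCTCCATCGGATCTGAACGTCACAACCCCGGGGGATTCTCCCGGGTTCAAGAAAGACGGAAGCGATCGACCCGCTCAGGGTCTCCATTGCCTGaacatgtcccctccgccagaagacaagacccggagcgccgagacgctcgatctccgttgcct

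Of the 94 genes 75 matched a RefSeq promoter entry, with 96 windows, and 32 had a peak over a window in some list. SIN3A lay over the windows of 18 genes with control siRNA and 17 with Pdx1 siRNA, p65 over 6 in each genotype with IL-1β, and PDX1 over 1 in each wild-type list. These counts were not made for the windows of all genes, so they show nothing particular to the family. The Rab39b window held the homeodomain core TAATTA from base 43 and from base 128. Both cores lay wholly under the PDX1 peak of wild-type cells with IL-1β (4.37 tags). The PDX1 peak of the wild-type control list (3.49 tags) covered only the end of the window nearest the start, and neither core. Both PDX1 peaks were low in their lists, at percentiles 12.69 with IL-1β and 4.67 in the control by tags. Rab39b encodes a RAB of neurons, and its window had a GC content of 31.6%, below the median of 59.6% over the 96 windows. TAATTA, searched like the other motifs on both strands, stood in 2.08% of these windows and in 4.31% of all 21263 windows, and the shorter TAAT, which it contains, in 36.5% and 49.4%.

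The Vamp4 window held the E-box CACGTG, a sequence bound by CLOCK and BMAL1 among other factors, from base 88, and a match to the NF-κB consensus from base 127. Both lay under the SIN3A peak of control siRNA cells. CACGTG was present in 9.38% of the family windows and 6.63% of all windows, and the NF-κB consensus in 4.17% and 4.18%. The cyclic AMP element TGACGTCA stood in 2.08% and 1.92%, and TGACG, which it contains, in 30.2% and 20.2%. The family windows had a median GC content of 59.6%, against 55.6% over all windows, and the part of base composition in these shares was not tested. A match describes letters in a window and not an occupied site.

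The lists rested on 53.5 to 63.9 M tags for p65 and PDX1 and on 31.0 and 35.0 M for SIN3A. They held 173 to 40028 peaks, each list giving 1 value per peak for the whole group and none per sample. No difference could therefore be set against replicate spread, and the intervals below are Wilson 95% intervals of shares, which cover counting error only. Tag counts are the authors', per 10 M tags, and serve only to describe peaks and order them inside 1 list. Unless a site is named, the count given for a gene is that of its highest peak in the list. That peak can lie at another site in another list, as with p65 in wild-type and knockout cells at Rab17, Stx3, Syt9 and Syt13. Peaks of the knockout PDX1 lists were 472 and 418 bp wide and those of the wild-type PDX1 lists 207 and 226 bp, and the tag thresholds were 34 and 32 against 20 and 22. The PDX1 samples with IL-1β carry p65 in their antibody label and PDX1 in their titles. The titles were followed. No list holds transcript levels, so the β-cell identity, the Bmal1 deletion and the Pdx1 depletion were not checked here.

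Vesicle genes had peaks of all 3 proteins. p65 peaks were found at 12 of the 94 genes in wild-type control cells (12.8%, against 9.01% of all genes), at 60 in wild-type cells with IL-1β (63.8%, against 46.1%), at 0 in knockout control cells (against 0.676%) and at 46 in knockout cells with IL-1β (48.9%, against 33.0%). PDX1 peaks were found at 53 genes in wild-type control cells and 47 with IL-1β (56.4% and 50%, against 42.0% and 41.4%), and at 25 and 23 in the knockout (26.6% and 24.5%, against 16.5% and 16.1%). SIN3A peaks were found at 68 genes with control siRNA and 66 with Pdx1 siRNA (72.3% and 70.2%, against 48.1% and 50.5%). With peaks of at least 8-fold over input the SIN3A counts were 41 and 51, in the opposite order, and the knockout PDX1 counts 7 and 11, also in the opposite order. By that measure p65 in wild-type control cells was at 7 genes, and the PDX1 count of wild-type IL-1β cells was 31. In the full lists the family share stood above the share of all genes in 9 lists and the knockout control p65 list was the exception. The family genes were also longer, with a median body of 25245 bp against 17169 bp, and the part of gene length in these shares was not tested.

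**Figure D1:**
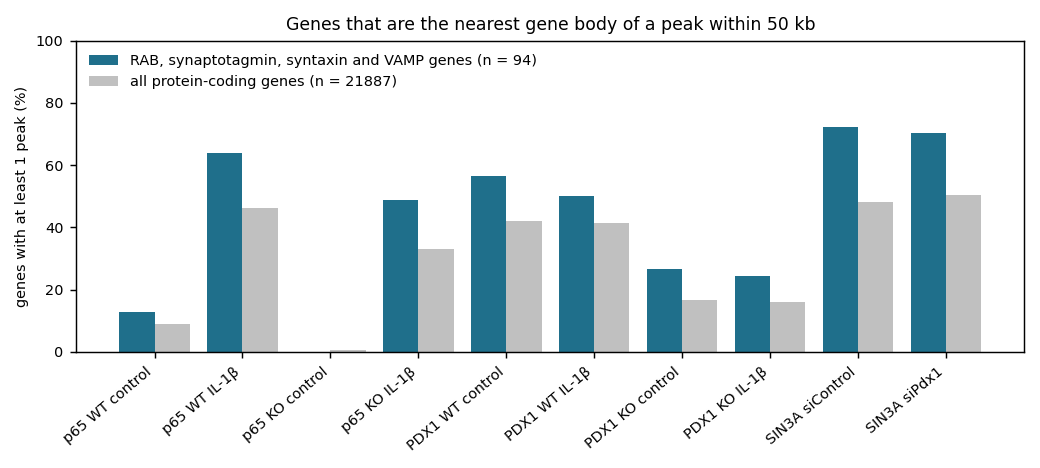
Percent of genes that were the nearest gene body, within 50 kb, of at least 1 peak in each of the 10 lists, for the 94 vesicle genes (blue) and all 21887 protein-coding genes (grey); WT, wild-type; KO, Bmal1 knockout. The family bars run from 0 in the knockout control p65 list to 72.3% for SIN3A with control siRNA.

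Peak height did not set the family apart in a common direction. The median tag count of family peaks was 10.5 for p65 in wild-type cells with IL-1β, where it was 10.3 over all peaks, and 9.0 in the knockout, where it was 9.18. For PDX1 it was 9.31 in wild-type control cells and 11.5 with IL-1β, against 8.14 and 9.23 over all peaks, and 18.55 and 13.55 in the knockout, against 16.5 and 13.6. For SIN3A it was 18.4 and 20.45, against 20.0 and 21.7. Over all lists 60 of the 94 genes had SIN3A together with p65 or PDX1 (63.8%, against 42.7% of all genes), and 14 had SIN3A only (14.9%, against 11.2%). A further 13 had p65 or PDX1 without SIN3A (13.8%, against 18.9%), and 7 had no peak (7.45%, against 27.3%).

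The 3 proteins differed in where they lay. Among family peaks whose gene has an annotated start, 62 of 69 SIN3A peaks with control siRNA came within 1 kb of it (89.9%, against 78.7% of all such peaks), at 55 genes. With Pdx1 siRNA 82.2% did so, against 76.2%. For p65 with IL-1β the share was 16.2% in wild-type and 20.5% in knockout cells, against 14.0% and 19.6%. For PDX1 it was 6.67% and 5.93% in wild-type cells, against 4.88% and 4.27%. In both knockout lists it was 0.0%, against 3.18% and 3.55%, but these lists had only 28 and 31 such family peaks. Distal sites thus carried most p65 and PDX1 peaks of these genes, and start sites most SIN3A peaks.

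**Figure D2:**
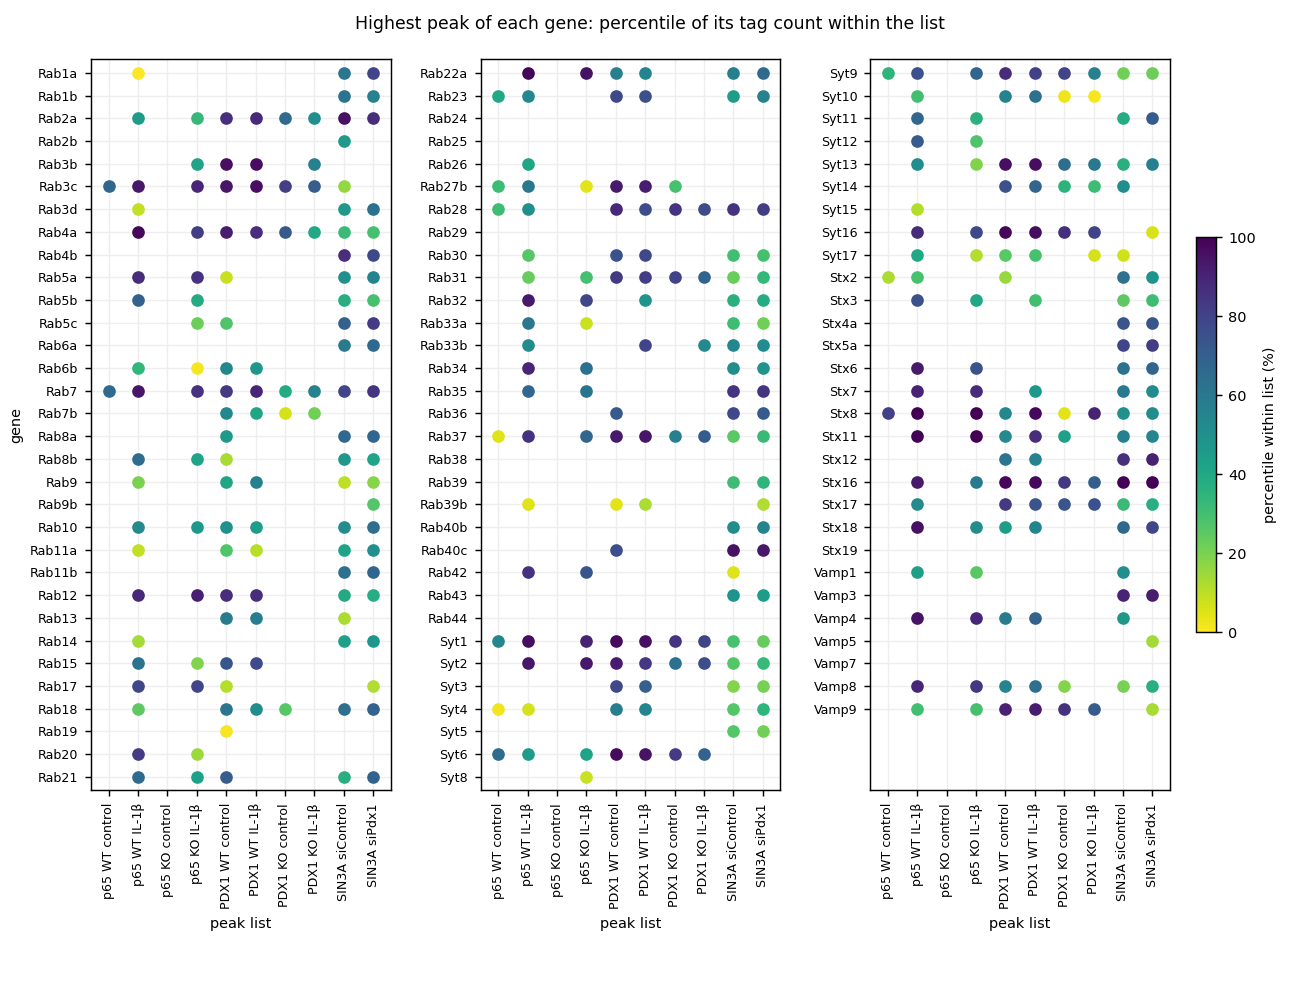
Each row is 1 gene, for 93 of the 94 genes, grouped as RABs, synaptotagmins, syntaxins and VAMPs, and each column 1 of the 10 lists; a dot marks a gene with a peak and its colour the percentile of the gene's highest tag count within that list. The p65 KO control column is empty, and Syt1, Syt9, Stx8, Rab7 and Rab37 have dots in the 9 other columns.

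Among the RABs of regulated secretion, which bring granules to the plasma membrane, PDX1 had peaks at 8 of 10 genes in wild-type control cells (42.0% of all genes), 6 with IL-1β (41.4%) and 3 in either knockout list (16.5% and 16.1%). The IL-1β lists had p65 at 7 of 10 in wild-type and 6 of 10 in knockout cells (46.1% and 33.0% of all genes), and SIN3A was at 7 with control siRNA and 5 with Pdx1 siRNA (48.1% and 50.5%). Rab3c, a vesicle RAB, had 11 PDX1 peaks in either wild-type list, the highest of 33.9 tags in control cells and 45.8 with IL-1β, and 2 and 3 in the knockout, of up to 28.0 and 18.2 tags. Its p65 peaks numbered 2 in wild-type control cells (8.37 tags at most), 5 with IL-1β (55.7) and 6 in the knockout with IL-1β (28.8). Rab3c is 226810 bp long, and the 4 genes with the most PDX1 peaks in wild-type control cells, Syt1, Rab3c, Syt16 and Syt9, are 178308 to 513331 bp long.

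Rab3b, another vesicle RAB, was mainly a PDX1 gene. Its PDX1 peaks reached 41.2 tags in wild-type control cells and 47.9 with IL-1β, at a site 490 and 467 bp beyond the gene body (chr4:108943814-108944020 in the control list). In the knockout the control list had no Rab3b peak, the nearest one to that site lying 123911 bp away, while the IL-1β list had 3, with 14.9 tags inside the gene, 13.5 at that site and 10.3 farther out. p65 was at Rab3b only in knockout cells with IL-1β, with 7.94 tags at the same site and 7.77 at the one inside the gene. Rab3b had no SIN3A peak in either list.

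Rab27b, a granule-docking RAB, had 6 and 5 PDX1 peaks in wild-type cells (30.6 and 34.0 tags at most), 1 in knockout control cells (12.1) and none in knockout cells with IL-1β. Its p65 peaks had at most 5.21, 13.1 and 4.06 tags in wild-type control, wild-type IL-1β and knockout IL-1β cells. Those of the wild-type lists lay inside the gene, and that of the knockout lay 37228 bp outside it. Rab37, a secretory-granule RAB, was in 9 lists, with p65 at 3.91, 29.9 and 12.9 tags in the same order, PDX1 at 30.7 and 39.7 tags in wild-type and 18.1 and 18.3 in knockout cells, and SIN3A at 12.6 and 15.2 tags. Rab26, also of secretory granules, had 1 peak in all, of p65 in wild-type cells with IL-1β (8.41 tags). Rab3d had p65 in that list alone (4.3 tags) besides SIN3A (18.7 and 26.6 tags).

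Rab8a, Rab8b, Rab10 and Rab13, which carry vesicles to the cell surface, had SIN3A with control siRNA and PDX1 in wild-type control cells in common. Rab8a had 25.4 and 28.6 tags of SIN3A with control and Pdx1 siRNA, Rab10 20.3 and 27.2, and Rab8b 19.0 and 18.9. Rab13 was assigned a SIN3A peak only with control siRNA (8.7 tags), and PDX1 at 9.64 and 10.8 tags in wild-type cells. Rab8b had PDX1 at 4.15 tags in wild-type control cells and p65 at 14.6 and 7.94 tags with IL-1β. Rab8a had no p65 peak and a PDX1 peak in wild-type control cells alone (7.48 tags). Rab10 had p65 at 10.8 and 8.65 tags with IL-1β and PDX1 at 7.98 and 8.26 tags in wild-type cells.

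The early-endosome and recycling RABs, which return receptors to the surface, had p65 at none of 16 genes in either control list (9.01% and 0.676% of all genes), at 12 in wild-type cells with IL-1β (75.0%, against 46.1%) and at 11 in the knockout with IL-1β (68.8%, against 33.0%). PDX1 was at 9 and 5 in wild-type (56.2% and 31.2%, against 42.0% and 41.4%) and at 2 in each knockout list (12.5%, against 16.5% and 16.1%), and SIN3A at 12 and 13 (75.0% and 81.2%, against 48.1% and 50.5%). Rab22a, an early-endosome RAB, had the highest p65 peak of all RABs, inside the gene (135.4 tags in wild-type and 45.4 in knockout cells with IL-1β), and the wild-type control list had no peak within 431945 bp of it. Rab4a, of the rapid recycling route, had 114.7 tags in wild-type cells with IL-1β, but this peak lay 42286 bp from the gene, and its highest in the knockout had 20.1 tags. Rab5a, the organiser of early endosomes, had p65 at 33.8 and 22.9 tags with IL-1β, beside the start. Rab5b had 16.4 and 7.59 tags and Rab17, an epithelial recycling RAB, 22.4 and 18.4.

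Rab4b and Rab11b had SIN3A without p65, and the 10 other genes of this group with SIN3A in the control siRNA list also had p65 in some list. Rab4b had SIN3A at 36.4 and 34.3 tags and Rab11b at 24.2 and 28.9 tags, and neither had a peak of p65 or PDX1. Rab11a, the recycling-endosome RAB, had SIN3A at 17.4 and 22.0 tags and low peaks of p65 (4.3 tags) and PDX1 (5.32 and 4.21) in wild-type cells. Rab35 combined SIN3A (35.4 and 39.5 tags) with p65 under IL-1β (15.7 in wild-type and 11.3 in knockout cells). Rab25 had no peak in any list.

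The late-endosome and lysosome RABs had p65 with IL-1β at 4 of 9 genes in wild-type (44.4%, against 46.1% of all genes) and 3 in knockout cells (33.3%, against 33.0%). SIN3A was at 4 and 5 (44.4% and 55.6%, against 48.1% and 50.5%). PDX1 was at 4 and 5 in wild-type lists (44.4% and 55.6%, against 42.0% and 41.4%) and 2 in either knockout list (22.2%, against 16.5% and 16.1%). Among these genes Rab7, which directs endosomes to lysosomes, was in 9 lists. Its p65 peaks reached 8.18 tags in wild-type control cells, 57.9 with IL-1β and 23.3 in the knockout with IL-1β, its PDX1 peaks 19.4 and 29.3 in wild-type and 14.0 and 14.7 in knockout cells, and its SIN3A peaks 30.9 and 39.5. Rab32, of lysosome-related organelles, had p65 at 51.2 and 17.8 tags with IL-1β and Rab12 at 36.6 and 32.5. Rab7b had only PDX1, of 7.33 to 9.08 tags in the 4 lists. Rab24, Rab29 and Rab38 were assigned no peak.

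The RABs of the endoplasmic reticulum and Golgi had SIN3A at 13 of 16 genes with either siRNA (81.2%, against 48.1% and 50.5% of all genes). With IL-1β they had p65 at 9 in wild-type (56.2%, against 46.1%) and at 4 of 16 in knockout cells, below the 33.0% of all genes. PDX1 was at 7 and 6 in wild-type lists (43.8% and 37.5%, against 42.0% and 41.4%) and at 2 in either knockout list (12.5%, against 16.5% and 16.1%). Rab2a, a Golgi RAB, had a SIN3A peak of 50.9 tags with control and 42.0 with Pdx1 siRNA that lay about 39.5 kb outside the gene, and further peaks of 39.6 and 40.3 tags inside the gene. Rab1b, of transport from the endoplasmic reticulum to the Golgi, had SIN3A at 23.8 and 24.0 tags and nothing else. Rab1a had SIN3A at 23.5 and 35.5 tags and a p65 peak of 3.36 tags. Rab6a had SIN3A alone (22.9 and 28.0 tags), while its neuronal relative Rab6b had p65 and PDX1 and no SIN3A. Rab34 had the highest p65 peak of this group, with 37.7 tags in wild-type and 11.7 in knockout cells with IL-1β. The 7 genes placed in no role group had p65 at 4 in wild-type cells with IL-1β (57.1%, against 46.1% of all genes), and Rab40c among them had SIN3A at 50.2 and 52.3 tags at its start.

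Of the 7 synaptotagmins whose C2 domains bind calcium, 6 had PDX1 in either wild-type list (85.7%, against 42.0% and 41.4% of all genes) and 5 in either knockout list (71.4%, against 16.5% and 16.1%). p65 was at 3 in wild-type control cells (42.9%, against 9.01%), 5 with IL-1β (71.4%, against 46.1%) and 4 in the knockout with IL-1β (57.1%, against 33.0%), and SIN3A at 5 with either siRNA (71.4%, against 48.1% and 50.5%). Syt1, the fast calcium sensor of synaptic vesicles, had the most PDX1 peaks, with 14 and 16 in wild-type cells (44.7 and 45.7 tags at most) and 5 in each knockout list (30.1 and 21.1 tags). The gene is 513331 bp long. Its tallest PDX1 sites in wild-type cells, at 232, 524 and 539 kb from the start, were listed in 3 or more of the 4 PDX1 lists. The last was absent from the knockout IL-1β list. p65 was also at these 3 sites in wild-type cells with IL-1β, with 14.0, 16.6 and 19.1 tags in that order, and at 524 kb in the knockout (7.94 tags). Lower PDX1 sites at -33, 197.5 and 450 kb were also in 3 or more lists. Of these only the one at 197.5 kb had p65, in wild-type cells with IL-1β (3.92 tags). The highest p65 peak of Syt1 lay 470 kb from the start, where no PDX1 list had one, with 80.5 tags in wild-type and 29.8 in knockout cells. SIN3A lay near the start, with 13.5 and 11.7 tags.

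Syt9, a calcium sensor of secretory granules, was also in 9 lists. It had 9 and 8 PDX1 peaks in wild-type cells (23.3 and 20.7 tags at most), 4 and 3 in the knockout (26.9 and 14.9), and p65 at 5.39, 20.0 and 13.1 tags in wild-type control, wild-type IL-1β and knockout IL-1β cells. Syt2, a close relative of Syt1, had p65 at 59.2 and 38.3 tags with IL-1β, PDX1 at 29.4 and 23.2 tags in wild-type and 19.7 and 20.0 in knockout cells, and 3 SIN3A peaks in either list. Syt6 had PDX1 at 44.5 and 41.8 tags in wild-type and 28.7 and 17.5 in knockout cells, and no SIN3A. Syt3 had PDX1 in wild-type cells alone (16.1 and 14.7 tags), and Syt5, a dense-core vesicle synaptotagmin, had SIN3A alone (12.9 and 11.2 tags).

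The 9 other synaptotagmins had p65 at 7 genes in wild-type and 6 in knockout cells with IL-1β (77.8% and 66.7%, against 46.1% and 33.0% of all genes), and PDX1 at 5 genes in either wild-type list (55.6%, against 42.0% and 41.4%). Syt16 had the highest PDX1 peak of the families in wild-type control cells, inside the gene (chr12:74084742-74084948), with 53.3 tags, 49.5 at most with IL-1β, and 31.5 and 21.1 at most in the knockout. Syt13, a synaptotagmin that does not bind calcium and is found in islets, had PDX1 at 41.0 and 49.2 tags in wild-type and 20.5 and 15.5 in knockout cells. Its p65 peaks with IL-1β had at most 10.5 and 5.47 tags. Syt4, known in β-cells as a regulator of the calcium sensitivity of release, had PDX1 in wild-type cells only (9.47 and 10.2 tags) and p65 at 3.72 and 4.11 tags. Syt11 had p65 with IL-1β (15.7 and 7.24 tags) and SIN3A (16.4 and 30.6 tags), and no PDX1. Syt12 and Syt15 had p65 alone, and Syt8 only a p65 peak of 4.41 tags in knockout cells.

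Among the plasma-membrane syntaxins, the target SNAREs of exocytosis, Stx11 stood first. Stx11, which serves granule release in immune cells, had p65 peaks centred at -0.29 kb and -1.63 kb from its start with 199.1 and 181.9 tags in wild-type cells with IL-1β. The same places had 102.9 and 113.9 tags in the knockout with IL-1β, and no p65 peak of the wild-type control list came within 979308 bp. PDX1 peaks lay downstream of the start at 1.77 and 3.6 kb, with 7.98 and 8.47 tags in wild-type control cells and 20.4 and 25.9 with IL-1β. A further PDX1 peak of 20.2 tags at the upstream p65 site was listed with IL-1β only, in wild-type cells. The antibody label of those PDX1 samples names p65, so PDX1 and p65 cannot be told apart there. The knockout had a single PDX1 peak, of 14.8 tags in control cells. SIN3A had 9.98 and 9.72 tags beside the start.

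The other plasma-membrane syntaxins had lower p65 peaks or none, while SIN3A was highest at Stx4a. Stx3, found on insulin granules and the apical membrane, had p65 at 19.8 and 7.77 tags with IL-1β and SIN3A at 12.2 and 14.6 tags. Stx4a, the syntaxin 4 of the cell surface, had SIN3A alone, at 28.3 and 31.7 tags. Stx2 had p65 at 4.28 and 6.54 tags in wild-type cells, PDX1 at 4.32 tags in the wild-type control and SIN3A at 24.2 and 21.2 tags. Stx19 had no peak.

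All 8 intracellular syntaxins had SIN3A with either siRNA, against 48.1% and 50.5% of all genes, and 6 had p65 with IL-1β in wild-type (75.0%, against 46.1%) and 5 in knockout cells (62.5%, against 33.0%). Stx8, of late endosomes, held the highest p65 peak of the 94 genes, inside the gene about 125.7 kb from its start (chr11:68092055-68092261). It ranked 31 of 31389 in wild-type cells with IL-1β at 322.8 tags and 11 of 16162 in the knockout at 157.8 tags. In wild-type control cells the site had 11.0 tags, and in knockout control cells none were listed. PDX1 at this site had 8.14 tags in wild-type control cells and 55.5 with IL-1β, and 6.68 and 27.9 in the knockout. The counts listed for this Stx8 site were thus higher with IL-1β for PDX1 in both genotypes and for p65 in wild-type cells. They come from lists with unlike peak widths and thresholds, and the difference was not tested. PDX1 binding and p65 in the PDX1 libraries with IL-1β, whose antibody label names p65, cannot be told apart here.

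**Figure D3:**
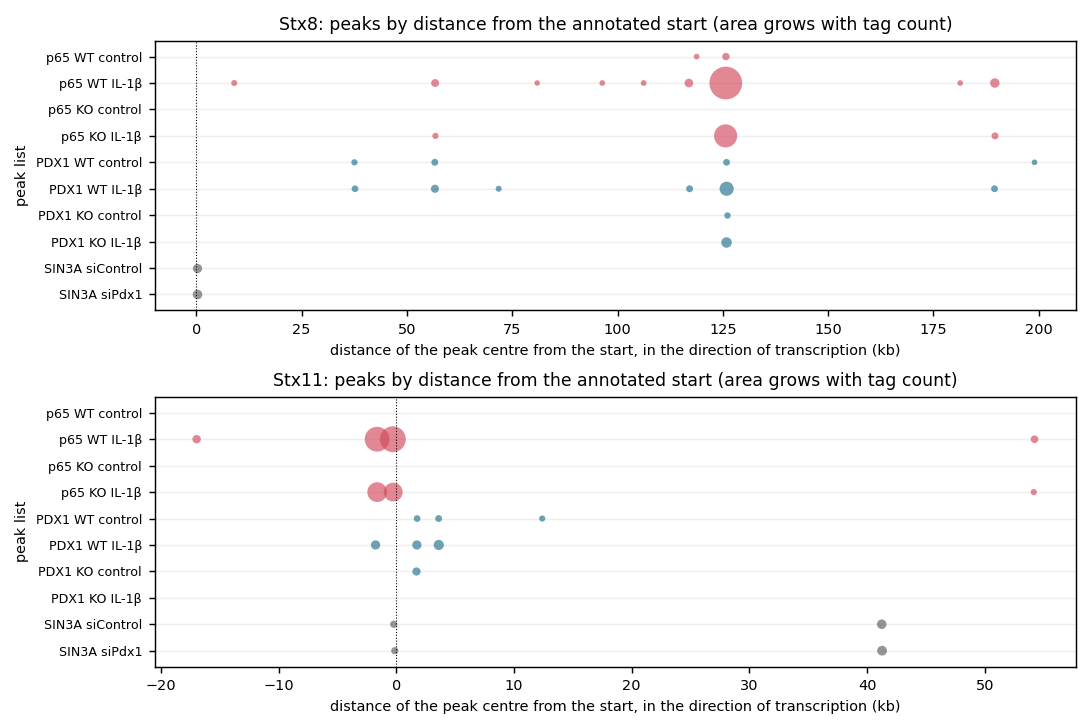
Peaks of Stx8 (top) and Stx11 (bottom) by distance of the peak centre from the annotated start in kb, with 1 line per list and circle area growing with the tag count; red, p65; blue, PDX1; grey, SIN3A. The largest circle is the p65 peak of 322.8 tags in Stx8, and the Stx11 p65 peaks of 199.1 and 181.9 tags lie just before its start, with no p65 circle in the control lines of that gene.

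Stx16, of the trans-Golgi network, had the highest SIN3A peaks of the families, at its start, with 86.0 tags with control siRNA (rank 78 of 13109) and 98.1 with Pdx1 siRNA (rank 57 of 14653). It also had PDX1 at 21.6 kb from the start, with 52.0 and 58.0 tags in wild-type cells and 29.7 in knockout control cells. A site 26 kb from the start held PDX1 (41.0 and 45.2 tags in wild-type, 28.2 and 18.2 in knockout cells), SIN3A (20.3 and 22.3 tags) and p65 in wild-type cells with IL-1β (17.2 tags). It was the 1 of 155 p65 peaks there that overlapped both PDX1 and SIN3A (0.645%, against 1.3% of all p65 peaks). Of its 5 other p65 peaks in that list 2 lay upstream, at -24.33 kb (53.6 tags, and 10.8 in the knockout) and -26.35 kb (23.3). The 3 downstream had 32.7 tags at 21.72 kb, 14.9 at 10.28 kb and 11.2 at 12.84 kb. The peaks of 53.6, 32.7 and 14.9 tags overlapped PDX1. At the peak of 53.6 tags the PDX1 peak had 6.8 tags and was listed in wild-type cells with IL-1β but not in the control.

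Stx18, of the endoplasmic reticulum, had a p65 peak of 72.5 tags in wild-type cells with IL-1β, and its only one in the knockout had 9.36 tags and lay at a lower wild-type site of 10.8 tags. Stx6, of the trans-Golgi network, had 51.4 and 15.5 tags of p65 with IL-1β and no PDX1. Stx7, a late-endosomal partner of Stx8, had 40.2 and 25.6 tags. Stx12, of recycling endosomes, had SIN3A at 36.7 and 46.3 tags, PDX1 at 10.3 and 10.5 tags in wild-type cells and no p65. Stx17, which brings autophagosomes to lysosomes, had PDX1 in all 4 lists (18.9, 16.5, 23.8 and 19.4 tags), and Stx5a had SIN3A alone (31.2 and 37.5 tags).

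Among the VAMPs, the vesicle SNAREs, Vamp4 and Vamp8 had the highest p65. Vamp4, of the trans-Golgi network, had 64.3 tags in wild-type and 27.9 in knockout cells with IL-1β, at a site 2808 bp before the gene, and PDX1 at 9.64 and 14.2 tags in wild-type cells. Vamp8, of endosomes and secretory granules, had p65 at 38.5 and 21.5 tags and SIN3A at 11.0 and 16.9 tags. Vamp3, the widely expressed relative of Vamp2, had SIN3A alone, at 40.6 and 49.5 tags. Vamp1 had p65 at 8.97 and 6.18 tags with IL-1β and SIN3A with control siRNA only (20.3 tags). Vamp5 had SIN3A with Pdx1 siRNA only (8.58 tags), and Vamp7, an endosomal and lysosomal SNARE, had no peak.

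IL-1β was compared with control cells through p65. In wild-type cells 7 of 155 family peaks with IL-1β overlapped a control peak (4.52%, interval 2.2% to 9.03%), against 5.07% of all peaks, and 7 of 15 control peaks were found again with IL-1β (46.7%, against 50.4%). All 12 genes with a control peak also had one with IL-1β (8.04% of all genes had both), 7 of them at a shared peak. No family gene had a control peak only (0.964% of all genes did), and 48 genes had one with IL-1β only (38.1% of all genes did). Stx11 (199.1 tags), Rab22a (135.4) and Rab4a (114.7) had the highest peaks among the 48. In the knockout 0 of 88 peaks overlapped the control list (upper bound 4.18%, against 0.724% of all peaks), and 46 genes had p65 with IL-1β only (32.4% of all genes did). The family had no peak in the knockout control list, which alone or together with the IL-1β list reached 0.11% and 0.567% of all genes, and whose 173 peaks allowed little overlap for any gene.

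Wild-type and knockout cells with IL-1β shared the tall p65 sites of these genes. Of the 155 wild-type peaks 69 were found in the knockout (44.5%, interval 36.9% to 52.4%), against 40.7% of all peaks, and the same 69 were 78.4% of the 88 knockout peaks, against 79.1%. Shared peaks had a median of 20.0 tags and the others 7.005. When the wild-type list was divided by tags into 4 equal bins, in the top bin 35 of 41 family peaks were shared (85.4%, against 87.8% of all peaks), and in the bottom bin 2 of 40 (5.0%, against 6.5%). Peaks in both genotypes were found at 43 genes (30.0% of all genes), in wild-type cells only at 17 (16.1% of all genes) and in the knockout only at 3, Rab3b, Rab5c and Syt8 (2.91% of all genes). The highest peaks of the 17 stood near the wild-type list's median of 10.3 tags. They had 11.2 tags for Rab23, a RAB of the primary cilium, 10.8 for Stx17 and 10.6 for Rab33b, a Golgi and autophagy RAB. With the wild-type list shortened to the length of the knockout list the shared share was 69.5%.

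PDX1 with and without IL-1β mostly occupied the same sites. Of 153 family peaks in wild-type control cells 101 were found with IL-1β (66.0%, interval 58.2% to 73.0%), against 60.1% of all peaks, and these were 69.7% of the 145 with IL-1β, against 61.8%. In the top bin by tags 47 of 48 were shared (97.9%, against 94.2%). In the knockout 27 of 40 were shared (67.5%, interval 52.0% to 79.9%), against 58.8%. Genes with PDX1 in control wild-type cells only numbered 10 (7.26% of all genes), led by Rab40c (15.1 tags), Rab36 (13.3) and Rab21 (13.0), and with IL-1β only 4 (6.73% of all genes), led by Rab33b (19.6), Rab32 (8.91) and Stx7 (8.58). In the knockout 20 genes had PDX1 in both lists (11.9% of all genes), 5 in control cells only (4.62% of all genes) and 3 with IL-1β only (4.26% of all genes). The Rab33b peak overlapped the p65 peak of the same gene, and Rab33b had PDX1 again with IL-1β only in the knockout (14.1 tags). With peaks of at least 8-fold over input in both lists the wild-type share was 42.3% and the knockout share 22.2%.

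Fewer of these genes had PDX1 in the knockout lists. The knockout control list held 39 of the 153 wild-type control peaks (25.5%, interval 19.2% to 32.9%), against 19.1% of all peaks, and these were 97.5% of the 40 knockout peaks, against 91.6%. With IL-1β 35 of 145 were found (24.1%, interval 17.9% to 31.7%), against 18.7%, and these were 87.5% of 40. Shared sites were the tall ones, with a median of 21.1 tags against 8.14 for the others, and 62.5% of the top bin was shared (54.7% of all peaks) against 0.0% of the bottom bin (1.39%). No gene had PDX1 in the knockout control list only (0.471% of all genes did), and 28 had it in wild-type control cells only (25.9% of all genes), led by Rab3b (41.2 tags), Rab12 (22.6) and Syt3 (16.1). With IL-1β none had it in the knockout only (0.516% of all genes did) and 24 had it in wild-type cells only (25.8% of all genes), led by Rab27b (34.0), Rab12 (26.2) and Stx11 (25.9). Lists of equal length shared 75.7% and 60.5% without and with IL-1β, and lists limited to 8-fold over input 7.22% and 10.9%. A reciprocal overlap of 50% gave 0.0% without IL-1β. That value was set by the peak widths, since a 207 bp peak cannot cover 50% of a 472 bp peak. The higher tag thresholds and wider peaks of the knockout lists move with the other shares, and their part there was not tested.

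**Figure D4:**
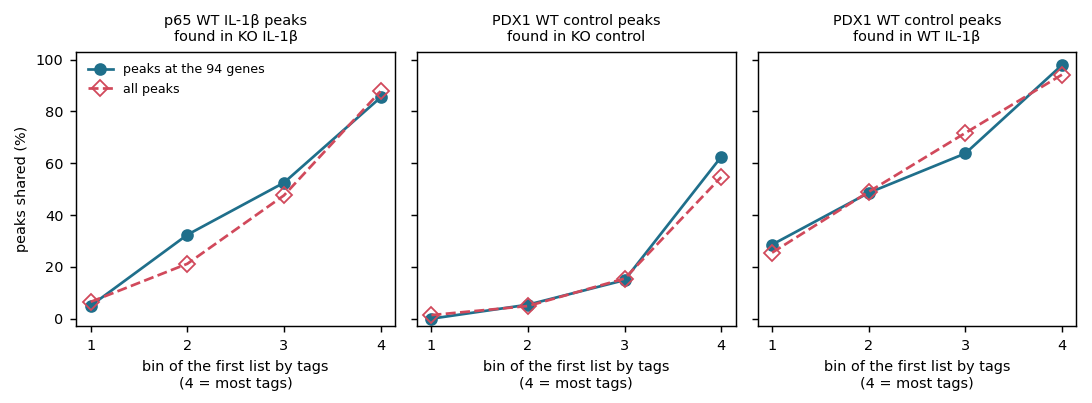
Share of peaks of a first list found in a second, in percent, by bin of the first list, divided into 4 equal bins by tags (bin 4 has the most), for the 94 genes (filled) and all peaks (open) in 3 comparisons. The share is higher in each next bin, up to 85.4%, 62.5% and 97.9% for the family, and the open symbols follow the same course.

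Of the 153 PDX1 peaks of wild-type control cells 27 were in all 4 PDX1 lists (17.6%, against 11.3% of all such peaks). They lay at 19 genes, among them Rab3c, Rab37, Rab2a, Rab7, Syt1, Syt2, Syt6, Syt9, Syt13, Syt16, Stx8, Stx16 and Stx17.

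SIN3A was compared between control and Pdx1 siRNA. Of 83 family peaks with control siRNA 62 were found with Pdx1 siRNA (74.7%, interval 64.4% to 82.8%), against 73.5% of all peaks, and these were 70.5% of 88, against 65.7%. Peaks in both lists were at 60 genes (44.7% of all genes). With control siRNA only there were 8, Rab13, Rab2b, Rab3c, Rab42, Syt14, Syt17, Vamp1 and Vamp4 (3.32% of all genes had such a pattern), of which Syt14 and Vamp1 (20.3 tags each) and Vamp4 (19.0) were highest. With Pdx1 siRNA only there were 6, Rab17, Rab39b, Rab9b, Syt16, Vamp5 and Vamp9 (5.78% of all genes), led by Rab9b (12.9 tags). Rab13 and Rab2b had a peak over their promoter window with Pdx1 siRNA that was assigned to a neighbouring gene, so for them the absence rests on the assignment. A reciprocal overlap of 50% gave 53.0% and centres within 100 bp gave 48.2%.

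With IL-1β, p65 and PDX1 shared a minority of their sites near these genes. The PDX1 samples with IL-1β carry p65 in their antibody label, so PDX1 and p65 cannot be told apart at a shared peak. Of all peaks in the wild-type PDX1 list with IL-1β, 61.8% overlapped the PDX1 control list and 27.3% the p65 list with IL-1β. Which protein gave a shared peak was not tested. In wild-type cells 47 of 155 p65 peaks overlapped a PDX1 peak (30.3%, interval 23.6% to 38.0%), against 33.8% of all p65 peaks, and these were 32.4% of the 145 PDX1 peaks, against 27.3%. Both proteins were listed at 40 genes (31.9% of all genes), sharing a peak at 27 of them, with p65 only at 20 (14.2% of all genes) and PDX1 only at 7 (9.52% of all genes). The highest p65 peaks at genes without PDX1 were those of Stx6 (51.4 tags), Rab34 (37.7) and Rab5a (33.8). PDX1 peaks present with IL-1β only overlapped p65 at 16 of 44 sites (36.4%, interval 23.8% to 51.1%), and those also in control cells at 31 of 101 (30.7%, interval 22.5% to 40.3%). Over all PDX1 peaks the order was the other way, 22.5% and 30.2%, and the intervals of the family overlap each other. In the knockout the family had 4 of 13 (30.8%) and 11 of 27 (40.7%), against 39.5% and 46.6% of all PDX1 peaks. A reciprocal overlap of 50%, and likewise centres within 100 bp, gave 22.6% for p65 with PDX1, and at least 8-fold over input gave 16.3%.

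In control wild-type cells 7 of 15 p65 peaks overlapped PDX1 (46.7%, interval 24.8% to 69.9%), against 55.4% of all, and every one of the 12 genes with p65 also had PDX1 (7.55% of all genes had both, and 1.45% had p65 only). With lists of equal length the shared share was 20.0%.

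SIN3A rarely met either factor. With control siRNA 3 of 83 SIN3A peaks overlapped a PDX1 peak of wild-type control cells (3.61%, interval 1.24% to 10.1%), against 6.83% of all, at Rab13, Rab40c and Stx16, and a reciprocal overlap of 50% gave 1.2%. With p65 of wild-type IL-1β cells 6 of 83 overlapped (7.23%, interval 3.36% to 14.9%), against 12.5%, at Rab33a, Rab34, Rab3d, Rab5b, Stx11 and Stx16. At the level of genes the same proteins coincided more often, with SIN3A and PDX1 at 41 genes (26.7% of all genes) and SIN3A and p65 at 47 (29.8% of all genes). All 3, with IL-1β for p65 and PDX1, were listed at 32 genes (34.0%, against 21.2% of all genes). The SIN3A cells had received siRNA, and no IL-1β is given in their labels, so these lists come from cells treated in different ways.

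**Figure D5:**
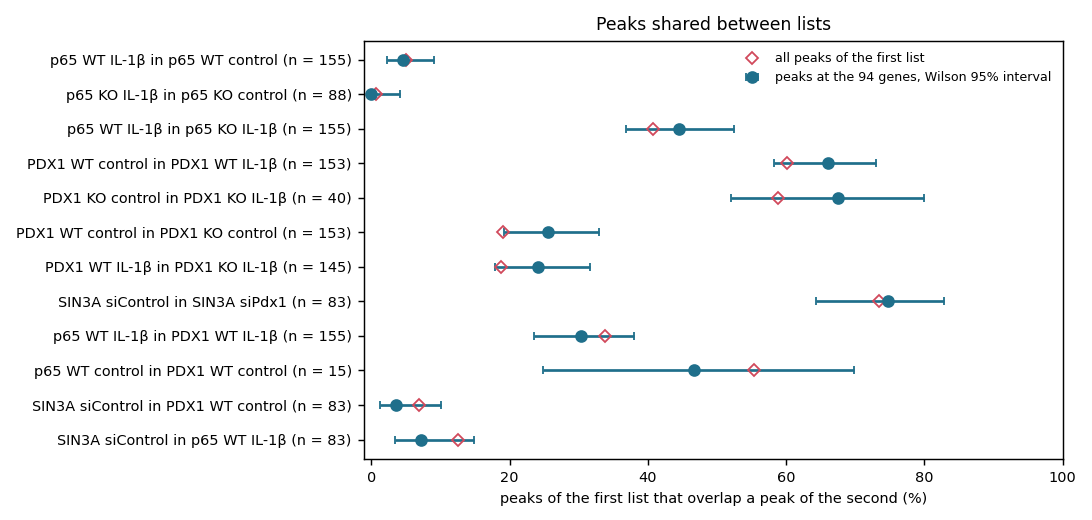
Share of peaks of the first-named list that overlap a peak of the second by at least 1 bp, in percent, for peaks at the 94 genes (filled, with Wilson 95% intervals and the number of peaks) and for all peaks of that list (open diamonds) in 12 comparisons. The open diamond for PDX1 in wild-type against knockout control cells (19.1%) lies just below the family interval, which starts at 19.2%, and the 11 other diamonds lie inside theirs.

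The 5 granule genes that the rule omits and the partners of these families give the surroundings. Of Rab3a, Rab27a, Syt7, Stx1a and Vamp2, SIN3A was at 4 with control and 5 with Pdx1 siRNA (48.1% and 50.5% of all genes). Rab27a and Syt7 alone had p65 with IL-1β, in wild-type and in knockout cells (46.1% and 33.0% of all genes). They alone had PDX1, in both wild-type lists (42.0% and 41.4% of all genes) and both knockout lists (16.5% and 16.1%). These 2 of 5 genes were a smaller share than that of all genes in wild-type cells and a larger one in knockout cells. Syt7, a high-affinity calcium sensor of insulin granules, had 121.6 tags of p65 in wild-type and 65.1 in knockout cells with IL-1β. Of 39 genes of the exocytosis machinery 29 had p65 in wild-type cells with IL-1β (74.4%, against 46.1% of all genes) and 21 did so without Bmal1 (53.8%, against 33.0%). PDX1 was at 29 of them in either wild-type list (74.4%, against 42.0% and 41.4%) and at 15 and 18 in the knockout lists (38.5% and 46.2%, against 16.5% and 16.1%), and SIN3A at 25 and 26 (64.1% and 66.7%, against 48.1% and 50.5%). Cadps, a priming factor for dense-core granules, had p65 at 12.6 tags in wild-type control cells, 190.0 with IL-1β and 95.3 in the knockout with IL-1β. Stxbp5l, a tomosyn that holds syntaxins, had PDX1 at 72.9 and 94.7 tags in wild-type and 48.2 and 46.6 in knockout cells. Of 26 regulators and effectors of RABs 17 had p65 in wild-type cells with IL-1β (65.4%, against 46.1% of all genes), and the knockout count of 9 was near the background (34.6%, against 33.0%). PDX1 was at 17 and 14 of them in the wild-type lists (65.4% and 53.8%, against 42.0% and 41.4%) and at 2 and 3 in the knockout lists (7.69% and 11.5%, below 16.5% and 16.1%), and SIN3A at 21 with either siRNA (80.8%, against 48.1% and 50.5%).

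No peak was assigned to Rab24, Rab25, Rab29, Rab38, Rab44, Stx19 and Vamp7. Near the distance limit, Syt4 took a PDX1 peak with IL-1β at 49806 bp (5.99 tags) and Rab28 one at 46608 bp (18.1 tags), while PDX1 peaks of 14.3 and 20.6 tags at 50554 and 50565 bp from Stx16 were not counted.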

How the data were processed

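The data were 10 HOMER peak lists, 1 for each immunoprecipitated group, and the 34 samples were grouped by their titles. The submitters' processing notes name Bowtie2 and HOMER and the build mm10. Not given in the sources used here: aligner settings, and whether replicates were pooled. Per the file headers, peaks were called in the factor style with fragments of 100 bp, requiring a 4-fold excess over the 10 kb around, a 4-fold excess over input with a p-value below 1.00e-04, and an FDR of 0.001. Peak signal is, per the file headers, the tag count after the authors' scaling to 10 M tags. The deposited HOMER score corrects that count for tag position. The deposited ratio (fold) of immunoprecipitated to input tags served only for the alternative of 8-fold.

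Each peak was given to the nearest protein-coding gene body within 50 kb, ties going to every tied gene, in the RefSeq table of GRCm38.p6, the assembly of mm10, using Python 3.11.15, pandas 2.3.3, NumPy 2.4.6 and SciPy 1.17.1. Peaks were shared when they overlapped by at least 1 bp. Assignment and sharing were tested on 300 simulated peaks, all inside genes that overlap no other gene. Ties, peaks outside genes and the limit of 50 kb were not covered by that test. No per-sample column was left unmapped, because the lists hold none, and no test between conditions was made. Distances to starts and strands came from the RefSeq promoter table, from which sequences were also copied. Windows that overlap a gene body were not printed, a filter added after the windows were seen. Genes named in the text were the 5 with the highest peaks per list, the 3 highest in each class present in 1 list of a pair, those in the most lists or in none, and a fixed set of secretory genes; further genes were named after their values were seen. The values of 1 member are not reported here on their own, and it stays in the counts. The members, roles and lists of partners were chosen with earlier results of these data known. Alternatives were gene distances of 10 and 100 kb, 1 gene per peak, a reciprocal overlap of 50%, centres within 100 bp, 8-fold over input and lists of equal length.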

Additional observations from a re-analysis of the deposited data

How the results depend on the processing

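The counts of genes with a peak stayed within 1.5 times their value for gene distances of 10 and 100 kb and for 1 gene per peak, in all 10 lists. With at least 8-fold over input they were 7 for p65 in wild-type control cells, 31 for PDX1 in IL-1β-treated wild-type cells, 7 and 11 for PDX1 in the knockout without and with IL-1β, and 41 and 51 for SIN3A with control and Pdx1 siRNA, which turns the order of the SIN3A and of the knockout PDX1 lists. Shared shares did not move beyond their intervals for a distance of 10 kb. With a reciprocal overlap of 50% and with centres within 100 bp they were 58.2% in either case for PDX1 of wild-type control cells with IL-1β, 53.0% and 48.2% for SIN3A, 22.6% in either case for p65 with PDX1, and 1.2% in either case for SIN3A with PDX1. PDX1 of wild-type against knockout control cells gave 0.0% with the reciprocal overlap, since a 207 bp peak cannot cover 50% of a 472 bp peak. With 8-fold over input in both lists the shares were 42.3% and 22.2% for control PDX1 peaks found again under IL-1β in the wild type and the knockout, 7.22% and 10.9% for PDX1 in wild-type against knockout cells without and with IL-1β, 61.7% for SIN3A and 16.3% for p65 with PDX1. With lists of equal length they were 69.5% for p65 in wild-type against knockout cells with IL-1β, 75.7% and 60.5% for PDX1 in wild-type against knockout cells without and with IL-1β, and 20.0% for p65 with PDX1 in control cells. Beyond the fewer peaks that a stricter fold or a shorter list leaves, the cause was not tested. No paired analysis was possible because each list holds 1 value per group, and for the same reason no replicate was left out. Windows, thresholds and depth differ between lists, so an unlisted peak may lie just under a threshold.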

Other observations

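Some promoters of these genes lay under SIN3A peaks that the nearest-gene rule gave to a neighbour, because the peak touched the neighbour's body. The window before Rab24, counted above as a gene without a peak, lay under a SIN3A peak of 36.9 tags with Pdx1 siRNA that was assigned to Prelid1. Rab13 had 30.6 tags with control and 33.2 with Pdx1 siRNA over its window, assigned to Rps27. Rab2b had 23.7 tags with Pdx1 siRNA, assigned to Tox4, and Stx5a 33.2 and 36.6 tags, assigned to 1700092M07Rik. Neighbouring genes can share such a peak, and the lists do not assign it.

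Of the 63 genes with p65 in any list 16 had no PDX1 in any list (25.4%, against 2728 of all 10915 genes with p65), among them Rab34, Rab35, Rab42, Stx6, Syt11 and Vamp1. Of the 57 with PDX1 in any list 10 had no p65 (17.5%, against 23.8% of all genes with PDX1), among them Rab13, Rab36, Rab40c, Rab8a, Stx12, Syt14 and Syt3.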
